A study of Mus musculus with 6 samples.

Results

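Transcripts of 10 genes of the NFAT and calcineurin pathway were followed in mouse Th17 cells with and without deletion of Stim1. They were chosen by symbol, as the NFAT transcription factors Nfatc1, Nfatc2, Nfatc3 and Nfat5, the calcineurin chains Ppp3ca, Ppp3cb, Ppp3cc and Ppp3r1, the calcineurin inhibitor Rcan1 and the NFAT kinase Dyrk1a. All 10 were found among the 23393 gene rows of the deposited table, and all 10 were among the 11947 genes tested, those averaging 10 or more normalised counts. Both groups were C57BL/6 CD4 T cells, activated as naive cells on plates coated with anti-CD3 and anti-CD28. The cytokines IL-6, IL-23 and IL-1b were present over the 2 days of culture, and the resulting helper cells are described as pathogenic Th17. The group called Stat3C had the genotype Stat3CSTOPfl/fl CD4-Cre, in which Cre driven by the Cd4 promoter removes a stop cassette and switches on an always active STAT3. The group called Stim1KO Stat3C had the genotype Stim1fl/fl Stat3CSTOPfl/fl CD4-Cre, so the active STAT3 was present in both groups and only Stim1 differed by design. Each group had 3 poly(A) RNA libraries. The labels give no age or sex and do not say whether replicates came from separate mice, so p-values measure the spread between these libraries, part of which may be technical.

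In T cells, calcium that enters through store-operated channels binds calmodulin, which switches on the phosphatase calcineurin. Calcineurin is a catalytic chain (Ppp3ca, Ppp3cb or Ppp3cc) held with a calcium-binding regulatory chain (Ppp3r1), and it strips phosphates from NFATc proteins so that they enter the nucleus. Kinases such as DYRK1A, GSK3 and casein kinase 1 put the phosphates back and favour export. STIM1 is the sensor of the endoplasmic reticulum that opens those channels. NFAT5 lacks the calcineurin-binding region of the other family members and is best known for its response to high salt. These are events at the protein level, whereas the values here are transcript levels and carry no information on phosphorylation or on where a protein lies in the cell.

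Of the 10 transcripts only Nfatc2 passed the test, and the regions in front of its start sites are shown first because it carries the main difference. Windows from the RefSeq promoter table of build GRCm38.p6 were searched for 7 of the 10 members, with 12 start sites in all. Nfatc1, Ppp3ca and Ppp3cc were not among those searched, which does not show that they lack an entry. The 250 bases before both start sites of Nfatc2 lie on the minus strand at chr2:168601658-168601907 and chr2:168590366-168590615. The window before the downstream start site of Rcan1, on the minus strand at chr16:92400079-92400328, is given beside them because this start site makes the short Rcan1 transcript, a textbook NFAT-induced RNA. Capitals mark GGAAA, the core that NFAT binds, on either strand (TTTCC where it lies on the other strand).
Nfatc2 upstream start site: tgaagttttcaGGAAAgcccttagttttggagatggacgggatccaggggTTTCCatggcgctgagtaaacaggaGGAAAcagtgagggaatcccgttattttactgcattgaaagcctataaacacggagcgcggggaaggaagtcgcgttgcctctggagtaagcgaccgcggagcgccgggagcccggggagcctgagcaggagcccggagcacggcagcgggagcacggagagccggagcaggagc
Nfatc2 downstream start site: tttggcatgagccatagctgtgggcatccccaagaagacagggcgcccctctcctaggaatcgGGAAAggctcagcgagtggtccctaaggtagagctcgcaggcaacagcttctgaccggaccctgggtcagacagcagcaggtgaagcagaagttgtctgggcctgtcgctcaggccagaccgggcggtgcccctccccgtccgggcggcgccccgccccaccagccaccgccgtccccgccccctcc
Rcan1 downstream start site: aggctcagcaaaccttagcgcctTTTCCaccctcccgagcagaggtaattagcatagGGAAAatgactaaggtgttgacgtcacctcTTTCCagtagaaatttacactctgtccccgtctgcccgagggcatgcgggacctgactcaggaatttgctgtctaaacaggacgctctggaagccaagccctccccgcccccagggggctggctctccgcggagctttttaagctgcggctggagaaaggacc

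The upstream Nfatc2 window held 3 matches to GGAAA, the downstream Nfatc2 window 1 and the Rcan1 window 3. Among the other members searched, the window of Ppp3cb also held 3 matches, and those of Nfat5 and of 1 Dyrk1a start site 2 each. At least 1 match was present in 55.6% of the 32851 windows of the same length that were searched, and 3 or more in 6.39%. The AP-1 motif TGANTCA, bound by the FOS and JUN partners of NFAT, was found once in the Rcan1 window and in neither Nfatc2 window, against 6.75% of all windows. The STAT motif TTCNNNGAA, which can overlap GGAAA, was in none of the 3 windows and in 7.02% of all. A match describes the letters only, and no binding was measured.

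Stim1 itself was checked first against the labels. It stood at 1999, 1969 and 1931 normalised counts in Stat3C and at 811, 794 and 687 in Stim1KO Stat3C, so that all 3 libraries of the second group were lower (log2 difference -1.37, SE 0.08, adjusted p = 0.000287). Stim1 RNA was reduced and not absent, with a ratio of means of 0.39, so libraries called without Stim1 are named by genotype. The source of the remaining Stim1 reads was not tested. Here and below a normalised count is a read count divided by the authors' size factor for that library, values run from replicate 1 to 3, and a log2 difference is the level in Stim1KO Stat3C less that in Stat3C after adding a pseudocount of 1. The reads recovered from the values came to 23092044 to 51347367 per library in Stat3C and 16009755 to 22519269 in Stim1KO Stat3C. Every Stim1KO Stat3C library was thus shallower than every Stat3C library, which limits the reading of low or absent genes. Each of the 10 genes had between 125 and 9161 reads in every library. Stat3C replicate 2 stood apart, with a mean correlation of 0.950 to the other libraries across tested genes against 0.967 to 0.974 for the rest. Replicate 3 of each group differed from the others in Xist, at 8362 and 11549 normalised counts against at most 3.53, and in the Y-linked Ddx3y, with 0 and 1 recovered reads against at least 1008 normalised counts. These levels show that replicate 3 did not come from the same mice as replicates 1 and 2. Fits without these libraries or without Stat3C replicate 2 are given below for some genes only. The related gene lists were not counted with replicates 1 and 2 alone. Summed markers of other cells were lower in Stim1KO Stat3C: 5 B cell genes summed to 124 to 352 in Stat3C and 30.1 to 58.9 in Stim1KO Stat3C, 2 CD8 genes to 277 to 453 and 111 to 159, and 5 myeloid genes to 17.4 to 166 and 5.97 to 17.2. The sum of 4 NK cell genes was 8.72 to 18.1 and 4.30 to 13.7. Of the B cell genes Ms4a1 was at 0 in all 3 Stim1KO Stat3C libraries, while Cd79b and Cd22 were present in all 6 with overlapping values. Of the myeloid genes Csf1r and Adgre1 were at 0 in all 3 and also in Stat3C replicate 3, while Cd14 and Itgam were present in all 6. The 6 general T cell and CD4 genes summed to 33105 to 36519 and 40665 to 44005. The 6 Th17 genes summed to 14436 to 19057 in Stat3C and 4616 to 5449 in Stim1KO Stat3C, with Il17a and Il17f lower but present in all 3 libraries of the latter. Most of the Th17 sum came from Il17f and Il17a. Ccr6 and Rora overlapped between the groups (adjusted p = 0.941 and 0.799, limma). Il23r was lower in all 3 libraries without passing (adjusted p = 0.0529, limma), and the remaining Th17 gene was lower and passed.

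Nfatc2, which encodes the NFAT1 protein abundant in resting T cells, rose about 2-fold when Stim1 was deleted. Its values were 2610, 2634 and 2366 normalised counts in Stat3C and 5637, 5050 and 4212 in Stim1KO Stat3C. The groups were far apart, and the lowest Stim1KO Stat3C library lay above the highest Stat3C library. The means were 2536 ± 148 and 4966 ± 716 (SD, n = 3 each), a ratio of 1.96. The log2 difference was 0.96 (SE 0.10, 95% interval 0.72 to 1.20, adjusted p = 0.00165, limma with Benjamini-Hochberg adjustment), and its p ranked 94 of 11947. Replicate 3 was the lowest library of both groups. With replicates 1 and 2 of each group alone the log2 difference was 1.02 (adjusted p = 0.027), and without Stat3C replicate 2 it was 0.99 (adjusted p = 0.000198). Nfatc2 (chromosome 2, 168476410 to 168601657, minus strand, GRCm38) has no exon that overlaps an exon of another annotated gene. The part in this difference of the shifts in Th17 and other-cell markers given above was not tested. In bulk RNA a change in the share of cells that express a gene and a change per cell cannot be told apart.

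**Figure D1:**
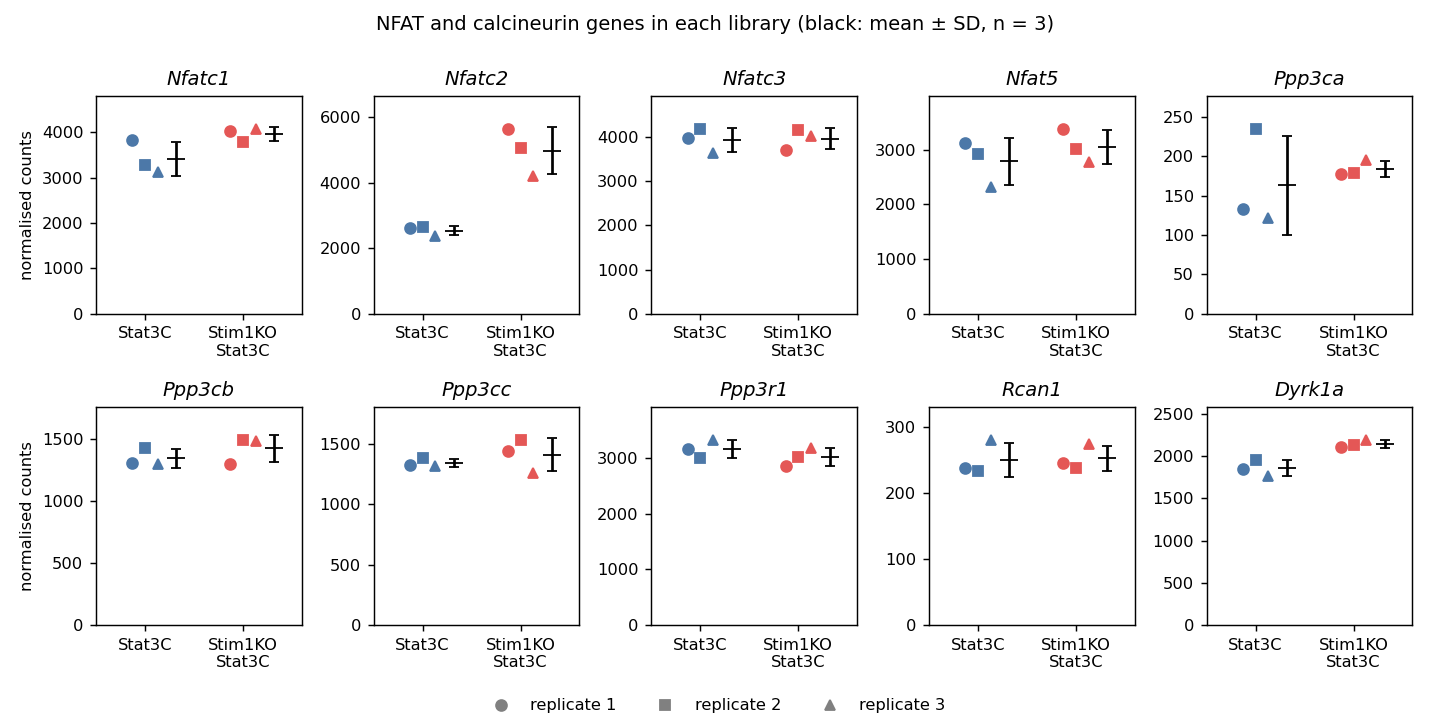
Normalised counts (vertical axes, starting at 0) of the 10 genes in the 3 Stat3C libraries (blue) and the 3 Stim1KO Stat3C libraries (red), with the symbol giving the replicate and the black mark the mean ± SD. The Nfatc2 values of the groups lie well apart (at most 2634 against at least 4212), the Dyrk1a values lie apart by a small step, and the other 8 genes overlap.

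The other members of the calcium-dependent family did not pass. Nfatc1 encodes NFAT2, whose gene is known to be switched on by NFAT itself after activation. It stood at 3841, 3280 and 3136 in Stat3C and at 4029, 3793 and 4077 in Stim1KO Stat3C, so 1 Stat3C library reached into the range of the other group. The log2 difference was 0.22 (SE 0.08, 95% interval 0.03 to 0.40, adjusted p = 0.11). Without Stat3C replicate 1, the highest of its group, it was 0.31 and passed (adjusted p = 0.0472). With replicates 1 and 2 of each group alone it was 0.14 and did not pass (adjusted p = 0.446, limma). Nfatc3, which encodes NFAT4, stood at 3966, 4181 and 3630 in Stat3C and at 3700, 4155 and 4025 in Stim1KO Stat3C. These ranges cover each other almost fully (log2 difference 0.01, SE 0.07, 95% interval -0.15 to 0.18, adjusted p = 0.913). Exons of Nfatc3 overlap those of Esrp2 on the other strand, which reached at most 36.3 normalised counts. Nfatc4, the remaining calcium-dependent gene, was close to absent at 0 to 3.22 normalised counts per library and was not tested.

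Nfat5, the salt-responsive member, did not pass either. It stood at 3127, 2920 and 2312 in Stat3C and at 3380, 3004 and 2768 in Stim1KO Stat3C. Values of the groups overlapped, and as for Nfatc2 the lowest library of each group was replicate 3 (log2 difference 0.14, SE 0.12, 95% interval -0.14 to 0.41, adjusted p = 0.466). Without Stat3C replicate 3 the log2 difference was 0.009 (adjusted p = 0.967, limma).

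In the make-up of the NFATc transcripts, Nfatc2 took a larger part and Nfatc3 a smaller part in all 3 Stim1KO Stat3C libraries. Each gene's normalised count was divided by its exon length in GENCODE M21 and expressed as a share of the summed Nfatc1, Nfatc2, Nfatc3 and Nfatc4. Nfatc2 made up 22.4%, 23.8% and 23.5% of this sum in the Stat3C libraries, against 38.4%, 35.6% and 30.9% in those without Stim1. All 3 shares were higher without Stim1, by 11.7 percentage points on average. The share of Nfatc3 was 32.5% ± 1.68 (SD, n = 3) and 25.3% ± 2.21, with no overlap, and that of Nfatc1 44.3% ± 2.38 and 39.7% ± 2.37, with overlap. As the shares add up to a fixed total, the lower share of Nfatc3, whose level differed by 0.01 on the log2 scale, restates the rise of Nfatc2. The exact two-sided permutation p was 0.1 for Nfatc2, 0.1 for Nfatc3 and 0.2 for Nfatc1. With 3 libraries against 3 an exact p of 0.1 is the smallest possible, and adjusted over the 7 shares computed it became 0.35 for Nfatc2 and Nfatc3 and 0.467 for Nfatc1. Summed per kilobase of exon, the 4 genes came to 1033 ± 74.1 and 1338 ± 50.3 normalised counts per kb, a ratio of 1.30 (exact permutation p = 0.1, two-sided). These shares depend on the gene models used for length, and those behind the deposited counts are not stated.

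**Figure D2:**
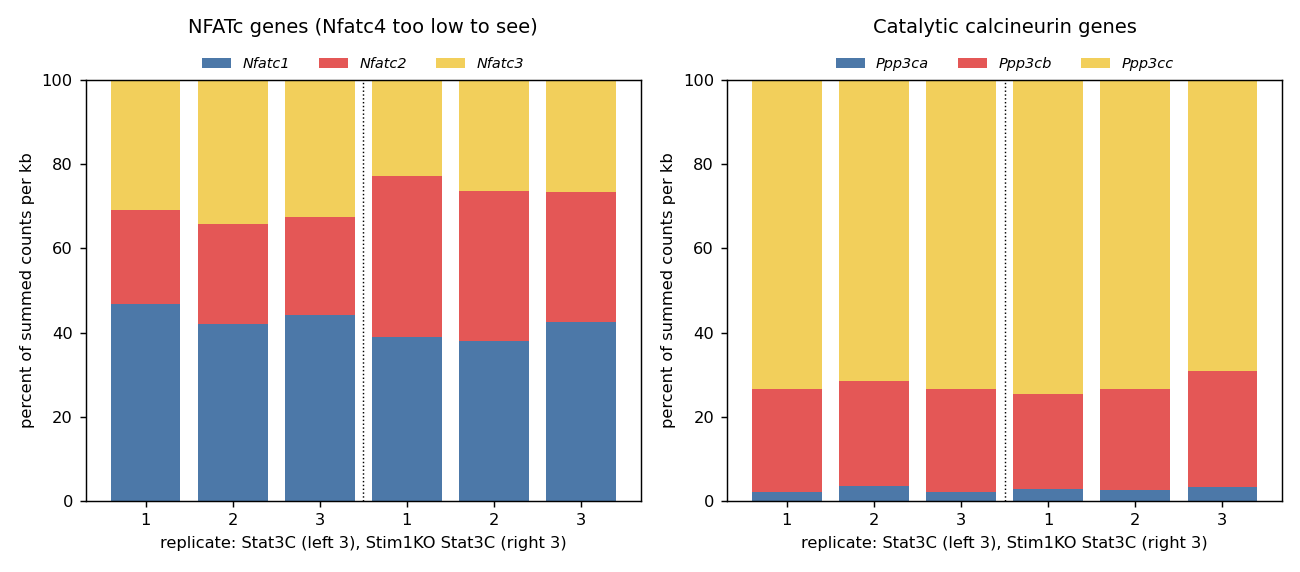
Share of each gene in the length-corrected sum of its family (vertical axis, percent) for each library, NFATc genes on the left and catalytic calcineurin genes on the right, with Stat3C in the left 3 bars of each panel. The red Nfatc2 segment runs from 22.4% to 23.8% in Stat3C and from 30.9% to 38.4% in Stim1KO Stat3C, whereas the calcineurin segments vary about as much within as between groups.

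No catalytic calcineurin gene passed the test. Ppp3cb, the beta chain, stood at 1304, 1425 and 1292 in Stat3C and at 1294, 1487 and 1480 in Stim1KO Stat3C. The log2 difference was 0.08 (SE 0.08, 95% interval -0.10 to 0.26, adjusted p = 0.501). Ppp3cc, the gamma chain, stood at 1329, 1384 and 1314 in Stat3C and at 1442, 1531 and 1260 in Stim1KO Stat3C. The Stim1KO Stat3C libraries spread more widely and enclosed the Stat3C values (log2 difference 0.07, SE 0.08, 95% interval -0.12 to 0.25, adjusted p = 0.602).

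Ppp3ca, the alpha chain, was the lowest of the catalytic genes and the least precisely measured. It stood at 133, 235 and 121 in Stat3C and at 178, 178 and 195 in Stim1KO Stat3C. Stat3C replicate 2 was the highest of all 6 libraries and the other Stat3C libraries the lowest. The log2 difference was 0.24 (SE 0.24, 95% interval -0.32 to 0.79, adjusted p = 0.536). Without Stat3C replicate 2 it was 0.53 and passed (adjusted p = 0.0336), so the call on Ppp3ca rested on the library that stood apart. With length taken into account, Ppp3cc made up 72.8% ± 1.16 (SD, n = 3) of the catalytic sum in Stat3C and 72.4% ± 2.79 in Stim1KO Stat3C, Ppp3cb 24.6% ± 0.285 and 24.8% ± 2.51, and Ppp3ca 2.62% ± 0.878 and 2.84% ± 0.335. The shares differed by 0.22 points for Ppp3ca, 0.18 for Ppp3cb and -0.40 for Ppp3cc, each less than the SD within a group (exact permutation p = 0.7, 1 and 0.8, two-sided, in a design where 0.1 is the smallest possible). The high share of Ppp3cc goes with its short exon length of 2985 bases, against 8809 for Ppp3cb and 9981 for Ppp3ca. Exons of Ppp3cc overlap those of Gm49417 on the other strand, which has no value here, so its level is uncertain.

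Ppp3r1 encodes the regulatory B chain of calcineurin and was the only member with a negative difference. It stood at 3160, 2991 and 3320 in Stat3C and at 2854, 3012 and 3180 in Stim1KO Stat3C. The groups overlapped (log2 difference -0.07, SE 0.06, 95% interval -0.21 to 0.08, adjusted p = 0.509). Exons of Ppp3r1 overlap those of Wdr92 on the same strand, a row with up to 11518 normalised counts, so its level is uncertain. Its paralogue Ppp3r2 was listed at 0 in all 6 libraries.

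Rcan1, which encodes an inhibitor bound to calcineurin and is widely read as a gauge of NFAT activity, did not pass. Rcan1 spans chromosome 16, 92391953 to 92470867, minus strand. It stood at 237, 234 and 280 in Stat3C and at 245, 238 and 274 in Stim1KO Stat3C. The values of the groups lay within each other (log2 difference 0.01, SE 0.12, 95% interval -0.26 to 0.29, adjusted p = 0.948). The count covers the whole gene, so transcripts from the downstream start site printed above and from the upstream site are added together, and a shift between them would not be seen.

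Dyrk1a encodes a kinase that phosphorylates NFATc proteins and so opposes calcineurin. The gene lies on chromosome 16, 94570010 to 94695517, plus strand (GRCm38), and none of its exons overlaps an exon of another annotated gene. It stood at 1849, 1951 and 1765 in Stat3C and at 2102, 2128 and 2188 in Stim1KO Stat3C. All 3 Stim1KO Stat3C libraries were above all 3 Stat3C libraries, by a small margin. The log2 difference was 0.21 (SE 0.06, 95% interval 0.07 to 0.34), and the adjusted p = 0.0529 missed the threshold of 0.05. Without Stat3C replicate 2 the log2 difference was 0.24 and passed (adjusted p = 0.0195). With replicates 1 and 2 of each group alone it was 0.16 and did not (adjusted p = 0.274).

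Over the 10 genes, 1 was called higher and 0 lower by limma at an adjusted p of 0.05, against 8.62% and 4.96% of all genes tested. A positive log2 difference was found for 9, against 49.8% of all genes tested, with a median of 0.11 against -0.0011 over all genes tested. Of these 9, Nfatc3 and Rcan1 differed by 0.01 each, and with upper-quartile scaling of the libraries both were negative (-0.022 and -0.021). That scaling moved the median over all genes tested to -0.037. At an unadjusted p under 0.05 there were 3, all higher (Nfatc1, Nfatc2 and Dyrk1a), against 17.0% higher and 31.1% in either direction over all genes tested. The 3 values of each group did not overlap for 2 of the 10, both higher, against 19.2% of tested genes that were higher without overlap and 16.4% lower. The count of members called was therefore close to the background. For the 9 that did not pass, the 95% intervals reached from -0.32 at the lowest to 0.79 at the highest, both bounds belonging to Ppp3ca, so that a failure to pass does not show equal levels.

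**Figure D3:**
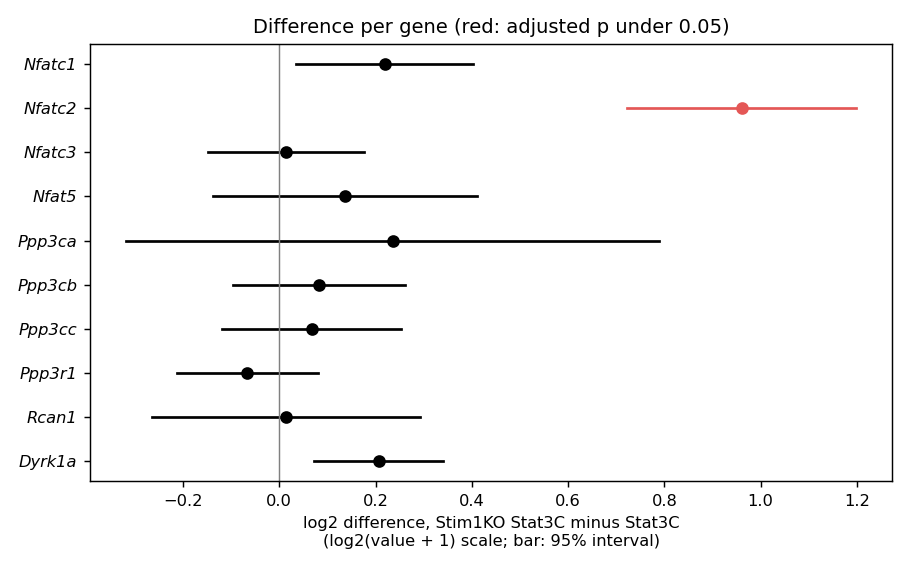
Log2 difference (horizontal axis, positive where Stim1KO Stat3C is higher) with its 95% interval from limma for each of the 10 genes. Nfatc2 (red, 0.96) has the only interval above 0.5 as a whole, and the intervals of Nfatc1 and Dyrk1a lie above 0 before adjustment for all genes tested.

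**Figure D4:**
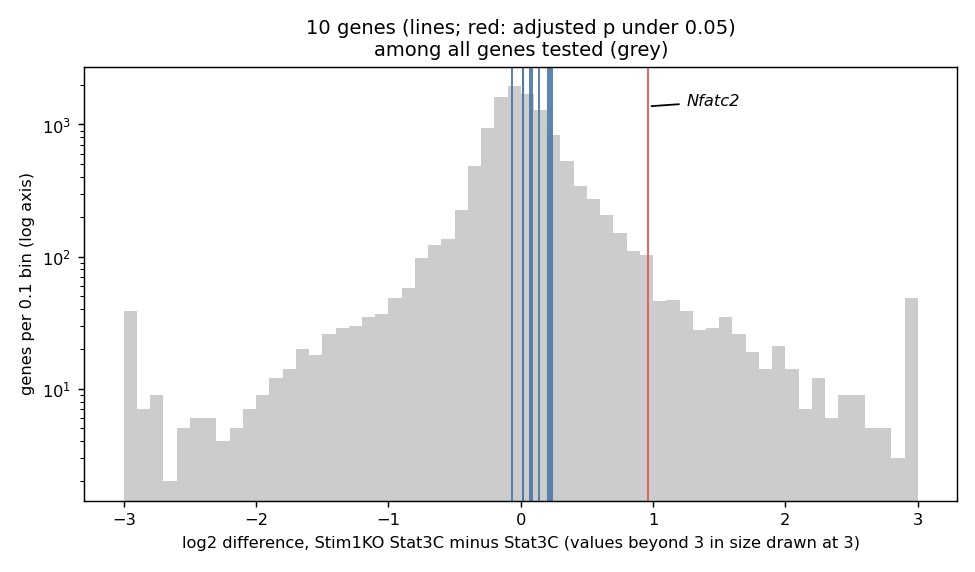
Distribution of the log2 differences of all 11947 genes tested (grey, number of genes per bin on a log axis, values beyond 3 in size drawn at 3), with the 10 members as vertical lines (blue where not past the threshold, red for Nfatc2). The 9 blue lines run from -0.07 to 0.24 within the bulk of the genes, and Nfatc2 at 0.96 exceeds 96.1% of them.

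Compared per kilobase of exon, Ppp3r1 was the highest of the 10 in both groups, at 978 ± 51.0 normalised counts per kb in Stat3C and 934 ± 50.4 in Stim1KO Stat3C, a level left uncertain by its overlap with Wdr92. Ppp3ca was the lowest, at 16.3 ± 6.26 and 18.4 ± 0.978. In Stat3C the order below Ppp3r1 was Nfatc1 (458 ± 49.9) and Ppp3cc (450 ± 12.3), whose library values overlapped, then Nfatc3 (335 ± 23.7), then Nfatc2 (240 ± 14.0) and Dyrk1a (225 ± 11.2), which overlapped each other. Ppp3cb (152 ± 8.35) and Nfat5 (152 ± 23.0) followed with overlap, and Rcan1 (81.1 ± 8.36) stood below them. In Stim1KO Stat3C the order was the same except that Nfatc2 (470 ± 67.7) stood above Nfatc3 (338 ± 20.0), with values that overlapped those of Ppp3cc (473 ± 46.3), and that Nfat5 and Ppp3cb changed places with overlapping values.

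The genes whose levels followed Nfatc2 most closely over the 6 libraries were Tiam1, an activator of the GTPase Rac, Gimap3, a GTPase of lymphocytes, Stk10, a kinase of lymphocytes, Flna, the actin crosslinker filamin A, and Grap2, an adaptor of the T cell receptor also called GADS. Their Pearson correlations with Nfatc2 ran from 0.996 to 0.999 on the log2(value + 1) scale, as the 5 highest among 10241 genes with a mean of at least 50. Tiam1 stood at 2259, 2337 and 2004 in Stat3C and at 4823, 4250 and 3605 in Stim1KO Stat3C, with the lowest value of each group again in replicate 3. As the points share 6 libraries in 2 groups, and 980 genes had a correlation above 0.9, this is a description of level patterns.

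Of 10 further genes of these families, relatives of the members, 6 were expressed highly enough to be tested. Among these 1 rose and 1 fell, with a median log2 difference of 0.05. Over all genes tested 8.62% were called higher and 4.96% lower, and 6 genes are too few to set against these shares. Rcan3, a relative of Rcan1 that also binds calcineurin, stood at 937, 1000 and 874 in Stat3C and at 1298, 1285 and 1223 in Stim1KO Stat3C. It was higher in all 3 libraries (log2 difference 0.44, SE 0.07, adjusted p = 0.00765) and missed the threshold only with replicates 1 and 2 of each group alone (adjusted p = 0.0799). Chp1, which encodes a calcineurin B-like protein reported to restrain calcineurin, fell from 2274 ± 55.3 to 1950 ± 110 (log2 difference -0.22, SE 0.06, adjusted p = 0.0466). The call on Chp1 was lost when any 1 of the 6 libraries was left out (adjusted p 0.0557 to 0.137). Dyrk1b, the closest relative of Dyrk1a, stood at 89.6, 101 and 79.5 in Stat3C and at 212, 173 and 114 in Stim1KO Stat3C, and missed the threshold (log2 difference 0.84, SE 0.24, adjusted p = 0.0531).

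Other lists hold the proteins that anchor or restrain calcineurin and the kinases that oppose it. Of the 9 tested inhibitors and anchors 0 passed by limma, with 2 higher and 2 lower at an unadjusted p under 0.05, 0 called by edgeR and 3 by DESeq2 on recovered reads. An unadjusted p under 0.05 was found by limma for 31.1% of all genes tested. Ppia, which encodes the cyclosporin-binding cyclophilin A, stood at 45864 ± 587 and 40245 ± 3422 (adjusted p = 0.0964), and Fkbp1a, the FK506-binding partner, at 9833 ± 637 and 9955 ± 489 (adjusted p = 0.862). Among 16 tested kinases and transport factors of NFAT, 1 rose and none fell, with a median of -0.05, against 13.6% called over all genes tested, and with library weights 3 were called higher and 4 lower. The gene that rose was Iqgap1, a scaffold of the RNA complex that retains NFAT in the cytoplasm, from 7656 ± 324 to 9819 ± 432 (log2 difference 0.36, SE 0.05, adjusted p = 0.00597). Nron, the RNA of that complex, was listed at 0 in all 6 libraries. Of 11 other calcineurin substrates Foxo1 rose from 2798 ± 32.6 to 3550 ± 248 (log2 difference 0.34, adjusted p = 0.0118). It missed the threshold without Stat3C replicate 1 (adjusted p = 0.0555) and without Stim1KO Stat3C replicate 2 (adjusted p = 0.0528). Mef2c, a transcription factor also made by B cells and myeloid cells, fell (adjusted p = 0.0463). It stood at 22.5, 215 and 24.2 in the Stat3C libraries and at 1.37, 9.66 and 0 in those without Stim1, so the Stat3C mean rested on replicate 2, the library in which the myeloid markers above were also highest. The part of those cells in this difference was not tested, and the call was lost when replicate 1 or 3 of either group was left out (adjusted p up to 0.141). The call held when replicate 2 of either group was left out.

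Genes that NFAT is known to act on in T cells moved in both directions. Of 38 tested, 12 rose, 5 fell and 21 did not pass, with a median log2 difference of 0.29. Over all genes tested 8.62% were called higher and 4.96% lower, which is also the background of the lists that follow. The 5 that fell were Il17a (3308 ± 669 to 479 ± 94.2), Il17f (11161 ± 1647 to 3171 ± 334), Nr4a1 (2833 ± 196 to 1342 ± 101), Nr4a2 (332 ± 25.7 to 225 ± 41.9) and Cblb, a ubiquitin ligase linked to anergy (3461 ± 313 to 2332 ± 163). Among those that rose Il2ra, the alpha chain of the IL-2 receptor, had the smallest p (36902 ± 663 to 54983 ± 287). The others that rose were Ifng, Il21, Csf2, Il13, Fasl, Icos, Ctla4, Ccl3, Ccl4, Tnfrsf9 and Havcr2. Their largest log2 differences were 3.41 for Havcr2, 3.36 for Ifng and 3.07 for Ccl3. The calls on Csf2, Il13, Fasl, Icos, Ctla4 and Ccl4 were each lost without at least 1 library (limma adjusted p up to 0.132). The list was written with earlier results of these data known and is no independent evidence of a direction. Without a variance trend 6 were called higher, and without Stim1KO Stat3C replicate 1 also 6. The call on Nr4a2 was lost without any of 4 libraries, Stat3C replicates 1 and 3 and Stim1KO Stat3C replicates 1 and 2 (adjusted p up to 0.127).

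Of 9 tested genes linked to NFAT5, 4 rose and 1 fell, with a median of 0.13. Those that rose were S100a4, a calcium-binding protein (90.5 ± 40.3 to 1026 ± 723, or to a mean of 610 without Stim1KO Stat3C replicate 1, adjusted p = 0.0128), the lymphotoxin genes Lta (637 ± 135 to 2379 ± 524) and Ltb (800 ± 109 to 1402 ± 252), and the salt-sensing kinase gene Sgk1 (470 ± 182 to 897 ± 53.2). The osmolyte transporter gene Slc6a6 fell from 6959 ± 356 to 5987 ± 94.8, and the inositol transporter gene Slc5a3 stood at 282 ± 32.4 and 309 ± 39.4 (adjusted p = 0.552). Akr1b3, the aldose reductase gene, was listed at 0 in all 6 libraries. Slc6a6 and Sgk1 kept their calls only when Stat3C replicate 2 was the library left out (adjusted p up to 0.145 and 0.0934 without the others), and Ltb lost its call without Stim1KO Stat3C replicate 2 (adjusted p = 0.0544). Among 22 partners of NFAT at DNA, which are transcription factors and the coactivator gene Ep300, 7 rose and 2 fell, with a median of 0.12. Among those with the smallest p values were Maf (363 ± 31.0 to 1789 ± 293) and Foxp3 (1286 ± 127 to 2428 ± 285), both of which rose, while the AP-1 gene Fos fell (483 ± 71.1 to 253 ± 34.9). Of this list 3 were called higher without Stat3C replicate 1 or 3 and 4 without Stim1KO Stat3C replicate 2, and 4 were called lower without Stat3C replicate 2.

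**Figure D5:**
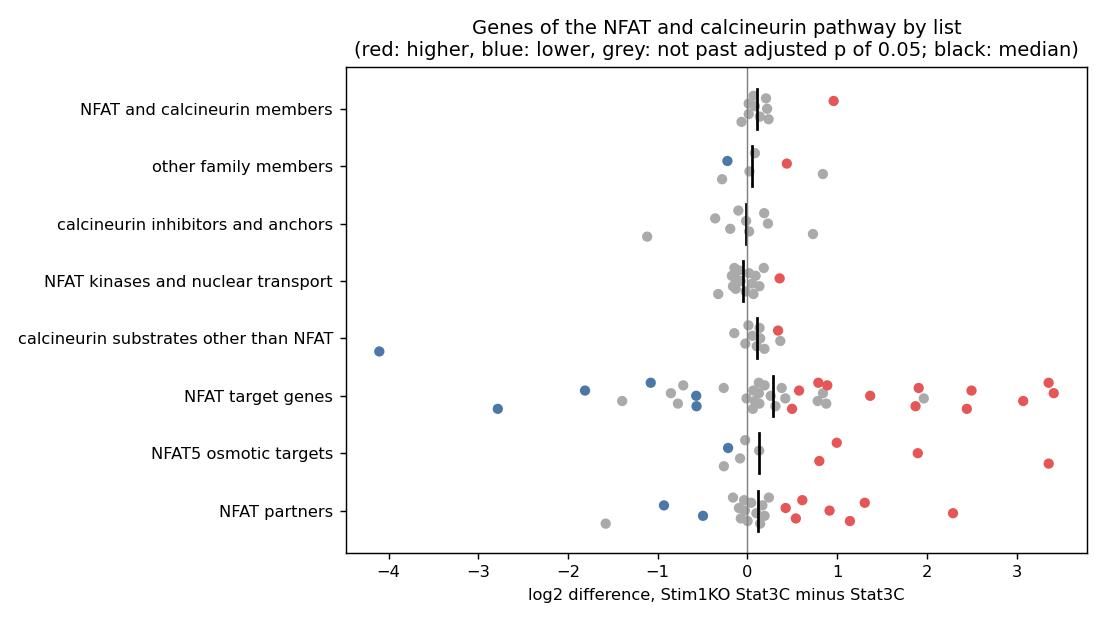
Log2 difference (horizontal axis, positive where Stim1KO Stat3C is higher) of every tested gene in the 10 members and the 7 related lists, coloured by call (red higher, blue lower, grey not past an adjusted p of 0.05), with the median of each list as a black line. The upper lists, which hold the signalling machinery, have medians between -0.05 and 0.11, and the NFAT target genes at the lower part spread from -2.78 to 3.41. Single genes of the upper lists lie far from their median, and Mef2c among the calcineurin substrates is at -4.10.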

How the data were processed

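RNA was measured in 6 libraries, prepared from poly(A) RNA in a way that keeps strand, per the labels' protocols. DESeq2 1.22.2, HTSeq 0.11.1 and TopHat2 2.1.1 are listed in the submitters' processing notes, with the build mm10 and no roles. No source used here states the gene models, filters or use of strand in counting. The deposited values are a normalised signal per gene, taken as read counts divided by a size factor, since 100% of values were whole multiples of a step per library within 0.01. Dividing by the step gave whole reads, on which edgeR called 945 genes higher and 562 lower. Of 23420 rows, 27 whose names had become dates were left out (at most 0.217% of reads).

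The test was limma 3.58.1 (R 4.3.3) on log2(value + 1) with a trended variance, two-sided and fitted to all 6 libraries without covariates, for genes with a mean of at least 10, with Benjamini-Hochberg adjustment over all genes tested. This is not a count test because the values were scaled by the authors. edgeR 4.0.16, DESeq2 1.42.0 and voom on recovered reads, other pseudocounts, filters and scalings, Xist as a covariate, library weights and leaving out each library were alternatives. Chosen after seeing the data were a fit of replicates 1 and 2 alone and an edgeR fit that leaves out Stim1KO Stat3C replicate 3, whose step (0.995) is close to 1. Simulated data were used to test the limma step. Lengths and positions came from GENCODE M21 (GRCm38). Members and lists were chosen with earlier results of these data known. Named genes are all members, up to 4 called genes per related list by smallest adjusted p or else the 2 of highest mean, the 5 genes most correlated with the member of smallest p, and Stim1. Dyrk1b, Nr4a2, Cblb, the NFAT targets that rose other than Il2ra, Slc6a6, Slc5a3, Nfatc4, Ppp3r2, Nron, Akr1b3, Esrp2, Wdr92, Gm49417, Ep300 and the markers fall outside this rule and were named after their values were seen. A gene that this rule would also name is not reported here.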

Additional observations from a re-analysis of the deposited data

How the results depend on the processing

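Nfatc2 stayed higher and past the threshold in 20 of 20 alternatives (log2 difference 0.86 to 1.07, highest adjusted p = 0.027). Dyrk1a passed in 4 of 20, and Nfatc3 and Rcan1, both near 0, kept their sign in 15 of 20. The cause of the changes below was not tested. Members called higher came to 2 with DESeq2, with library weights and with a mean of at least 50, and to 1 to 3 with 1 library left out, while 0 were called lower. Over all genes, 1004 were called lower by DESeq2, 639 higher and 283 lower by edgeR without Stim1KO Stat3C replicate 3, 2155 and 1804 with library weights, 603 and 224 without a variance trend, and 67 and 16 with replicates 1 and 2 alone. With 1 library left out these counts ran from 478 (without Stat3C replicate 1) to 1727 (without Stat3C replicate 2) higher and from 140 to 1212 lower.

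Among further family genes, 2 were called higher with DESeq2, Xist as a covariate or library weights (1 to 2 with a library left out), and 2 lower with weights, 0 without a trend or filter and 0 with any library left out. Inhibitors and anchors gave 2 higher and 1 lower with DESeq2 and with weights (0 to 1 higher with a library left out). Kinases and transport factors gave 3 higher and 4 lower with weights (1 to 2 and 0 to 2 with a library left out). Other substrates gave 2 higher with weights and 0 without a trend (0 to 2 with a library left out), and 0 lower with edgeR, voom, pseudocount 5, no trend, no filter or a mean of at least 50 (0 to 1). NFAT targets gave 9 lower with weights and 6 higher without a trend (6 to 15 higher and 4 to 7 lower with a library left out). NFAT5-linked genes gave 2 higher and 0 lower without a trend (2 to 4 and 0 to 1), and partners 4 lower with weights and 3 higher without a trend (3 to 8 higher and 2 to 4 lower).

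With a library left out, the share difference ran from 10.04 to 13.8 points for Nfatc2, from -8.02 to -5.90 for Nfatc3 and from -5.90 to -3.32 for Nfatc1. It changed sign for Nfatc4 (-0.0191 to 0.0055, with 0.0016 without Stim1KO Stat3C replicate 1 or 3), Ppp3ca (-0.0727 to 0.727), Ppp3cb (-1.20 to 1.24) and Ppp3cc (-1.50 to 1.16). No paired analysis was possible because the labels give the groups no shared replicate numbers. Depth limits Ppp3ca most, at 125 to 466 reads per library.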
